A study of Mus musculus with 12 samples.

Results

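Left and right lungs of wild-type mouse embryos were compared by RNA sequencing. The comparison rests on 6 of the 12 libraries of the series, 3 of left and 3 of right lungs, which were chosen by their labels alone. The embryos were at embryonic day 12.5 on a C57BL/6 background, came from matings of parents that both carried a knockout allele of Intu, a gene needed to build primary cilia, and were labelled wild type. The other 6 libraries, left and right lungs of Intu-knockout embryos of the same age, background and matings, are used below only to set values side by side and to test whether the difference between sides depended on the genotype. Whole lungs were dissected fresh and no cell type was selected. The libraries of a side carry the numbers 1, 2 and 3, and the labels do not state whether each number is another embryo. The p-values therefore speak only of the spread among these 6 samples, and part or all of that spread may be technical.

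The sides of the body are told apart before organs form. Motile cilia at the embryonic node set up a flow, the signal Nodal becomes active in the left lateral plate mesoderm, and Nodal and its antagonists Lefty1 and Lefty2 are then switched off. In the mouse the left lung is a single lobe and the right lung is divided into several lobes. Hox genes are transcription factors arranged in clusters, and their order along a cluster follows where along the body axis they are used; Hoxa5 is known to act in lung mesenchyme. Retinoic acid, made from vitamin A, is known to set Hox gene activity and is needed for the early lung bud.

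The libraries held 10377209 to 10753386 counts in the part of the genome analysed here (chromosomes 1 to 7, 10 and X and part of 8). Of 31078 genes, 9170 had enough counts to be tested. Levels are given as normalised counts-per-million (CPM) of that part. Lung markers were present on both sides: the summed level of 13 epithelial genes was 801.5 to 862 CPM on the left and 788 to 846 on the right, and Tbx5, a transcription factor of lung mesenchyme, stood at 362 to 445 CPM in all 6 libraries. The epithelial transcription factor Foxa2 (106, 99.8 and 111 CPM on the left and 99.6, 98.3 and 111 on the right) and the mesenchymal signal Wnt2 (228 to 263 CPM over both sides) overlapped between the sides. Intu was at 28.2 to 34.0 CPM and Xist, the RNA of the inactive X chromosome, at 1271 to 2268 CPM, with overlapping sides for both. By number Xist was at 1271, 1670 and 2163 CPM on the left and 1345, 2268 and 2018 on the right. In a principal component analysis the first 2 components (34.3% and 22.5% of the variance) separated the numbers 1, 2 and 3, and the third (17.8%) separated left from right. Left and right libraries of one number also deviated together from the means of their sides. The equal numbers were therefore taken as pairs. The pairing comes from these values, since the labels do not state it.

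Few genes differed between the sides, and most of the differences were small. With pairs as a block in edgeR's quasi-likelihood test, 68 of 9170 genes were called at a Benjamini-Hochberg adjusted p under 0.05 (0.742% of those tested), 30 higher on the left (0.327%) and 38 lower on the left (0.414%). Without pairs the same test called 8 genes (0.0872%), all of them among the 68. Of these 3 were higher on the left (0.0327%), among them Gm10705 and Hbb-y, and 5 were lower (0.0545%), among them Npnt, D030025E07Rik, Hoxa6 and Hoxa7. Every other call given below rests on the pairing. Log2 differences below are left minus right from the fit with pairs, with the standard error of the test (SE), and a negative value is lower on the left. In these whole lungs fewer cells of a type and less RNA per cell cannot be told apart. Of the 68, 67 went one way in 3 of 3 pairs, and 52 had left and right libraries that did not overlap. Over all tested genes the left was higher in all 3 pairs for 14% and lower for 13.6%, and the 3 left libraries lay wholly above the right ones for 4.3% and wholly below for 4.42%. The single exception to one direction in 3 pairs was Gm6397, an unnamed gene model chosen here after its values were seen, whose call came from left library 3 (16.6 CPM against 0.47 to 2.58 in the other 5) and whose difference was -0.07 without pair 3. Without pair 1, 2 or 3 the paired test called 65, 79 and 89 genes, and 37 of the 68 stayed called each time. With DESeq2 and pairs 22 of the 68 were called and 46 were not. Of the genes reported below, Adarb1, Adh1, Asb4, Cav1, Clca3a1, Cyp26b1, D030025E07Rik, Gm10705, Gucy1a1, Hbb-bh1, Hbb-bs, Hbb-y, Hotairm1, Hoxa5, Hoxa6, Hoxa7, Npnt, Skap2 and Vegfd were called by DESeq2 too, and the other calls rest on edgeR's test, or on it and limma-voom. The unpaired count of 8 fell to 0 without left library 1 or right library 2, to 5 without left library 2 and to 3 without right library 1.

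**Figure D1:**
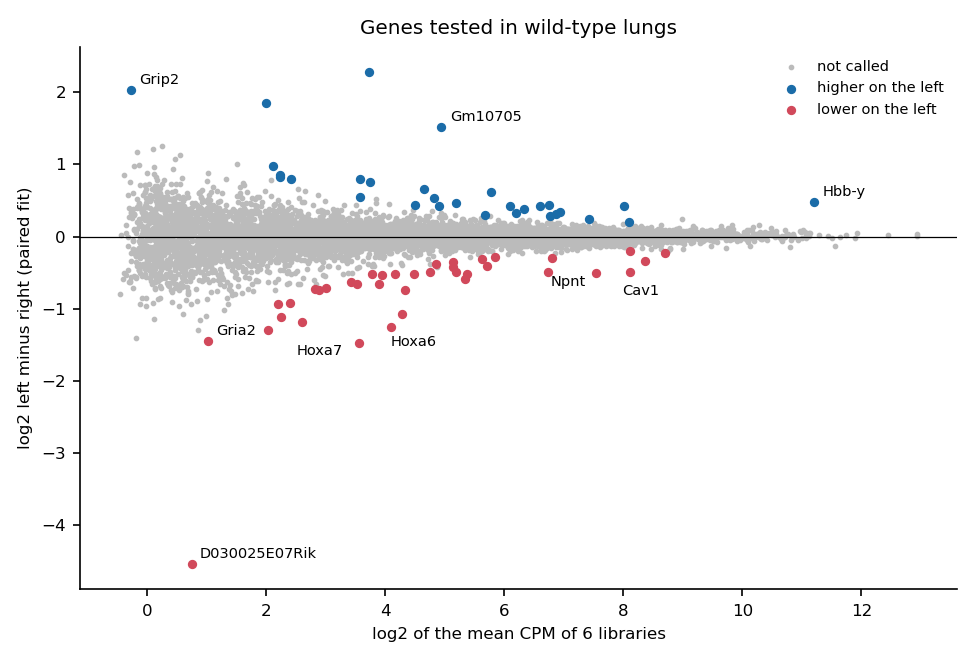
Log2 difference between left and right wild-type lungs in the fit with pairs (vertical axis, left minus right) against the log2 of the mean level over 6 libraries (horizontal axis, CPM). Each point is 1 of 9170 tested genes; blue points are the 30 genes called higher and red points the 38 called lower on the left, and most grey points at high levels lie close to 0.

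The signals that first set the sides had few counts in these lungs. Nodal had 1, 2 and 3 raw counts in the left libraries and 1, 4 and 3 in the right ones, and Lefty2 had 1, 2 and 2 against 0, 0 and 1, so both were too low to be tested. Lefty1, at 1.44, 0.757 and 0.747 CPM on the left and 1.24, 0.840 and 1.15 on the right, was not called (-0.14, SE 0.38, adjusted p = 0.974). The median of the 10 tested members of the left-right asymmetry list was 0.02, against 6.95e-05 over all tested genes, and Prrx1, taken up below, was among its calls.

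D030025E07Rik (chromosome 3, 128117015 to 128231606, minus strand, GRCm38), a long noncoding RNA gene, had far more counts in right than in left lungs. It had 2, 2 and 0 raw counts in the left libraries and 24, 47 and 31 in the right ones, 4 against 102 in all. The ratio of right to left counts was 25.6, with an exact 95% interval of 9.71 to 95.9 that covers counting error only. Its call held with pairs (adjusted p = 5.83e-06) and without (adjusted p = 0.0184). Enpep, which encodes aminopeptidase A and was chosen after its values were seen, stood at 134, 123 and 128 CPM on the left and 126, 97.7 and 88.3 on the right, with overlapping sides and a left value above the right one in each pair (0.32, SE 0.07, adjusted p = 0.0169; adjusted p = 0.118 without pair 3).

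**Figure D2:**
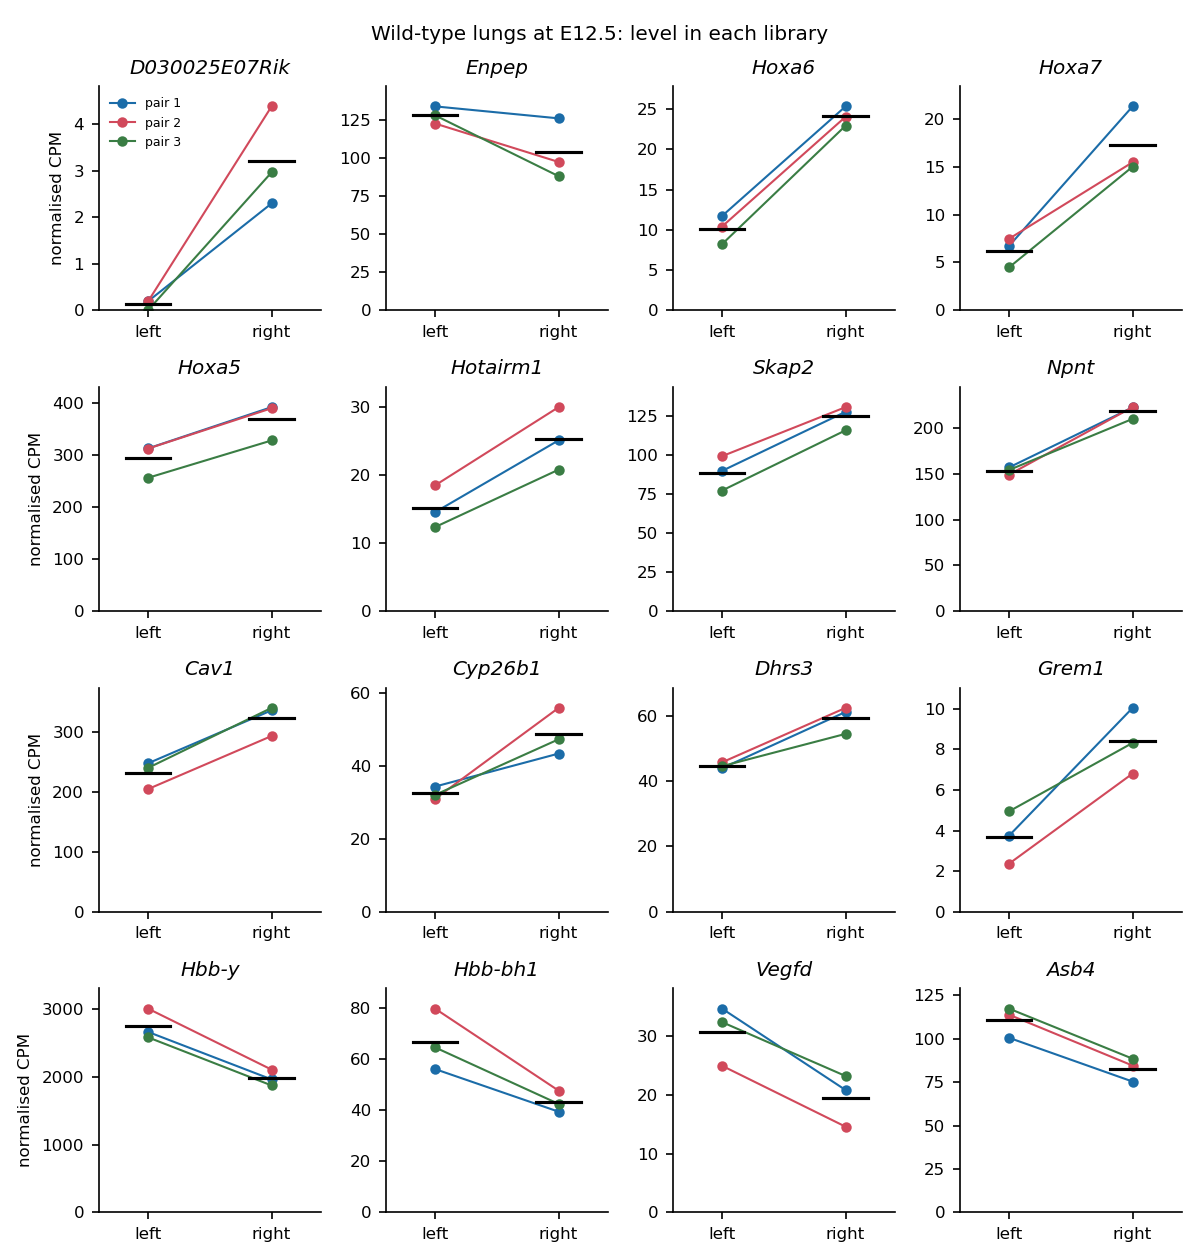
Level of 16 genes in each of the 6 wild-type libraries (vertical axis, normalised CPM, starting at 0), with lines joining left and right libraries of one number and black bars for the mean of 3 libraries. The bottom row (Hbb-y, Hbb-bh1, Vegfd and Asb4) falls from left to right in every pair, Enpep does so with overlapping sides, and the other 11 genes rise in every pair.

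Several Hoxa genes on chromosome 6 were lower on the left. Of 13 tested members of the list of the cluster and its neighbours, 7 were called lower and none higher, 10 were lower in all 3 pairs, and the median was -0.33; without pairs 3 were called. The sequences just upstream of a RefSeq start of 3 of them are printed because these neighbours differed to unequal degrees. Hoxa7 and Hoxa6 had the largest differences of the protein-coding genes in the cluster, and Hoxa5 beside them had a small one. The windows are from RefSeq (GRCm38.p6, minus strand), run 5′ to 3′ and end at the start of the transcript, or before the first base that GENCODE places in an exon (chr6:52204588-52204837 for Hoxa5, chr6:52208723-52208922 for Hoxa6 and chr6:52218712-52218823 for Hoxa7). The Hoxa7 window lies inside the gene model used for counting, which extends upstream to 52221854, so the RefSeq start used is internal to that model. Capitals mark CCAAT, or ATTGG on the other strand, in Hoxa5 and Hoxa6, and TTTATGA in Hoxa7.
Hoxa5: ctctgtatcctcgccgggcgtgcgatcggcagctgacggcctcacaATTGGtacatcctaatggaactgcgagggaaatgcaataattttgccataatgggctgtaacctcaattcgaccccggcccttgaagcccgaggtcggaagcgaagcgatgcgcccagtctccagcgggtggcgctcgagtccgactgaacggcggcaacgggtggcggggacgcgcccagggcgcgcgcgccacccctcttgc
Hoxa6: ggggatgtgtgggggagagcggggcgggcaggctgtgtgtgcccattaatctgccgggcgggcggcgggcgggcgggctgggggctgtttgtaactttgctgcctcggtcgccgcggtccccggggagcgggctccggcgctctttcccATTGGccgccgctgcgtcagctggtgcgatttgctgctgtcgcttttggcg
Hoxa7: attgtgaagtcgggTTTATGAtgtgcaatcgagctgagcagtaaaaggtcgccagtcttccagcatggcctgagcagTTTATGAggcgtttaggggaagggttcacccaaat

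Motifs were searched on both strands in the 250 bases before each RefSeq start. TTTATGA, a site bound by Cdx factors, was found 2 times before Hoxa7, with first bases 236 and 173 bases before the start, and not before Hoxa5 and Hoxa6. CCAAT was found once before Hoxa5 and once before Hoxa6, and not before Hoxa7. AGGTCA, the unit that retinoic acid receptors bind, TAATCC, a site of bicoid-class homeobox factors, and TGATNNAT, a joint site of Hox and Pbx factors, were in none of the 3 windows, which says only that these letters are not there. None of the motifs searched shares its letters with another in these windows. TTTATGA and CCAAT were added to the search after the windows had been read. Of 27025 windows of this length in the RefSeq table, 3.48% held TTTATGA, 34.5% CCAAT, 13.8% AGGTCA, 6.38% TAATCC and 7.91% TGATNNAT. Of the 68 called genes 50 had a window in the table, and 6, 40, 16, 6 and 4% of those held the 5 motifs in the same order.

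Hoxa7 (chromosome 6, 52214491 to 52221854, minus strand) was at 6.73, 7.48 and 4.48 CPM on the left and 21.3, 15.5 and 15.02 on the right. The sides did not overlap, with library 2 the highest on the left and library 1 on the right, and the fitted level was 2.77-fold higher on the right (log2 -1.47, SE 0.14, adjusted p = 9.44e-07). Hoxa6 (chromosome 6, 52206288 to 52208722, minus strand) was at 11.7, 10.4 and 8.21 CPM against 25.4, 24.1 and 23.0, again with no overlap, and 2.39-fold higher on the right (-1.26, SE 0.11, adjusted p = 5.52e-07). Hoxa5 (chromosome 6, 52201754 to 52204587, minus strand), the Hox gene with the highest level per length here, was at 312, 312 and 256 CPM against 391, 389 and 327 and 1.26-fold higher on the right (-0.33, SE 0.04, adjusted p = 0.000103). Number 3 was the lowest library of its side for all 3 genes.

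Toward the other end of the cluster Hotairm1, a noncoding RNA on the opposite strand, fell by 0.74 (SE 0.09), and Hoxaas2, an antisense RNA that overlaps the end of Hoxa3, by 0.52 (SE 0.09). Whether reads were counted by strand is not given in the sources used here, so reads of antisense RNAs and of the genes they overlap cannot be told apart. Skap2, an adaptor protein of immune cell signalling that lies outside the cluster, was at 90.0, 99.5 and 77.4 CPM on the left and 128, 131 and 116 on the right and fell by 0.49 log2 units (SE 0.05, adjusted p = 9.15e-06).

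Other Hoxa genes differed less. Hoxa2 was at 54.1, 52.2 and 56.5 CPM on the left and 55.9, 53.4 and 57.5 on the right, nearly level within each pair (-0.03, SE 0.06, adjusted p = 0.959). Hoxa3 and Hoxa4 were lower on the left in 3 of 3 pairs but overlapped between sides and were not called (-0.24, adjusted p = 0.145, and -0.20, adjusted p = 0.177). The gene model of Hoxa3 spans those of Hoxa4, Hoxa5 and Hoxa6, and how reads in shared stretches were assigned is not given. Hoxaas3 (0.04), Hibadh (-0.04) and Snx10 (-0.07), on the far sides of the cluster or across it, were not called. Between the start of Skap2 and the end of Hoxa7, a stretch of 364.4 kb, 16 genes were tested, 13 were lower on the left in 3 pairs and 8 were called, among them the short unnamed model Gm27477 (-1.12).

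Levels and differences did not rank alike along the cluster. On the right, levels per kb of exon were 197 CPM for Hoxa5, 68.2 for Hoxa4, 31.3 for Hoxa2, 27.6 for Hoxa6, 24.6 for Hotairm1, 12 for Hoxa3 and 6.01 for Hoxa7. Hoxa6 and Hoxa2 thus had like levels on the right and differed in the log2 difference. The genes of the posterior end had few counts on either side: Hoxa9 had at most 7 raw counts and Hoxa10 at most 2 in any library, and Hoxa11 had 0 in all 6. Of the Hoxd genes analysed, Hoxd8 and Hoxd13 were tested, both under 2.2 CPM, and neither was called.

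A pair of genes that keep retinoic acid low were lower on the left. Of 8 tested members of the retinoic acid list these 2 were called lower and none higher, 5 were lower in 3 of 3 pairs, and the median was -0.27. Cyp26b1 (chromosome 6, 84571414 to 84593908, minus strand), the enzyme that breaks down retinoic acid, was at 34.3, 30.9 and 32.0 CPM on the left and 43.4, 55.9 and 47.3 on the right. All left libraries lay within 4 CPM of each other and below every right library (-0.59, SE 0.08, adjusted p = 0.000287). Dhrs3, which turns retinaldehyde back into retinol, was at 44, 45.8 and 44.6 CPM against 61.3, 62.5 and 54.5 (-0.41, SE 0.07, adjusted p = 0.0014), also without overlap. Rdh10, which makes retinaldehyde, was at -0.22 (adjusted p = 0.0786), the binding protein gene Crabp2 at -0.20 (adjusted p = 0.395) and the receptor genes Rxra and Rxrg at 0.04 and -0.75 (adjusted p = 0.938 and 0.197). Outside the list and chosen after values were seen, Lrat, which stores retinol as esters, was lower on the left by 0.71 (SE 0.16), and Adh1, an alcohol dehydrogenase that can oxidise retinol, was higher by 0.34 (SE 0.05). Adh1 was at 132, 108 and 168 CPM on the left and 102, 81.4 and 142 on the right. Its sides overlapped, with the left above the right in each pair. Lrat was at 4.71, 4.92 and 8.401 CPM on the left and 5.55, 7.28 and 17.4 on the right: number 3 was the highest library on each side, and without pair 3 the adjusted p was 0.679. Aldh1a2, the main enzyme that makes retinoic acid in the embryo, was not analysed here. Of the cofactors that bind DNA with Hox proteins, none of 5 was called.

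Npnt (chromosome 3, 132881745 to 132950291, minus strand), which encodes nephronectin, a matrix ligand of the integrin of alpha 8 and beta 1 chains, was lower on the left. It was at 157, 149 and 155 CPM on the left and 223, 223 and 211 on the right, with libraries of a side close together and no overlap. It fell by 0.51 log2 units (SE 0.05, adjusted p = 8.98e-07) and was also called without pairs (adjusted p = 0.0106). Its receptor chain Itga8 was at -0.09 (adjusted p = 0.731), and no other of 9 tested genes of nephronectin, integrins and the Fraser complex was called. Of 8 tested genes of lung mesenchyme identity Npnt alone was called, with Tbx5 at -0.11, Wnt2 at 0.08 and Tcf21 at 0.11.

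Cav1 (chromosome 6, 17306335 to 17341452, plus strand), the coat protein of caveolae and a gene of endothelium and other flat cells, was at 248, 205 and 240.3 CPM on the left and 337, 294 and 341 on the right and fell by 0.49 log2 units (SE 0.04, adjusted p = 7.93e-07). Number 2 was the lowest library of each side and every left library was below every right one. Of 20 tested endothelial genes it was the only one called. The pan-endothelial genes Kdr (0.04), Tek (0.01) and Emcn (0.01) were near 0, its relative Cav2 was at 0.11, and the summed level of the list was 3276 to 3495 CPM on the left and 3385 to 3523 on the right. Vegfd, a growth factor for lymphatic vessels, went the other way. It was at 34.6, 24.9 and 32.3 CPM on the left and 20.8, 14.6 and 23.2 on the right, with number 2 again lowest on each side and no overlap (0.65, SE 0.09, adjusted p = 0.000193). Mmrn1, a matrix protein of platelets and lymphatic endothelium, was higher on the left by 0.25 in 3 of 3 pairs with overlapping sides (adjusted p = 0.0132; 0.11 without pair 3). These 2 were the calls among 8 tested genes of lymphatics and their growth factors, whose median was 0.10. The lymphatic genes Prox1 (0.12, adjusted p = 0.929) and Lyve1 (0.15, adjusted p = 0.615) and the ligand Vegfc (0.01, adjusted p = 0.985) were not called. Gucy1a1, a subunit of the nitric oxide receptor and chosen after its values were seen, fell by 0.23 log2 units (SE 0.04, adjusted p = 0.00992) from 463, 451 and 433 CPM on the right to 403, 366 and 379.8 on the left.

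Globin genes of red cells were higher on the left. Of 13 tested genes of red cells and platelets 6 were called higher and none lower, 10 were higher in 3 of 3 pairs, all 13 had positive values, and the median was 0.47. Hbb-y (chromosome 7, 103851749 to 103853216, minus strand), an embryonic beta globin, was at 2660, 3003 and 2580 CPM on the left and 1960, 2104 and 1871 on the right, the highest library being number 2 on each side (0.47, SE 0.05, adjusted p = 9.44e-07). Hbb-bh1, the other embryonic beta globin, was at 56.1, 79.8 and 64.6 CPM on the left and 39.4, 47.7 and 42.5 on the right (0.62, SE 0.07, adjusted p = 4.83e-06), also without overlap. The adult globin genes Hbb-bs and Hbb-bt rose by 0.42 (SE 0.05) and 0.42 (SE 0.07); they are near-identical copies, so the split of reads between them is uncertain. Alas2, which starts haem synthesis in red cells, rose by 0.47 (SE 0.08) and Ppbp, a platelet chemokine, by 0.55 (SE 0.12, adjusted p = 0.027, and 0.136 without pair 1 and 0.21 without pair 2). Hbb-bt, Alas2 and Ppbp overlapped between the sides, with the left value above the right one in each pair. The red cell transcription factors Klf1, Tal1 and Gata1 were at 0.08, 0.11 and 0.69 and were not called (adjusted p = 0.974, 0.865 and 0.508). Of these Gata1 had 30, 36 and 18 raw counts in the left libraries and 24, 18 and 10 in the right ones, higher on the left in each pair. The summed level of the 13 genes was 3054 to 3611 CPM on the left and 2266 to 2520 on the right. Whether the amount of blood in the tissue had a part in any other difference was not tested. Macrophage genes were not called: the summed level of 15 myeloid genes was 303 to 344 CPM on the left and 283 to 313 on the right, and the nearest of 14 tested was the chemokine gene Pf4, which platelets also express (0.46, adjusted p = 0.0699). Of the 14, 12 had positive and 2 negative values, and the median was 0.12. On the left 5 were higher in 3 of 3 pairs and none lower.

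Grem1 (chromosome 2, 113746164 to 113758646, minus strand), a secreted antagonist of bone morphogenetic proteins, was the call among genes of that pathway. It was at 3.75, 2.37 and 4.95 CPM on the left and 10.1, 6.81 and 8.32 on the right, so the left libraries were all below the right ones at a low level, and it fell by 1.19 log2 units (SE 0.18, adjusted p = 0.00072). No other of 12 tested genes of BMP and TGF-beta signalling was called; Bmp2 was at -0.50 (adjusted p = 0.0757) and Bmp3 at 0.35 (adjusted p = 0.0562). None of 20 Wnt genes was called, the nearest being Rspo3, which amplifies Wnt signals, at 7.69, 7.76 and 5.88 CPM on the left and 4.21, 4.85 and 4.4 on the right (0.66, SE 0.17, adjusted p = 0.0823). None of 11 hedgehog genes was called: Shh, the ligand of the airway epithelium, was at 0.05, and its target genes Gli1 and Hhip were at 0.03 and -0.07. None of 8 FGF genes and none of 12 Notch genes was called. The medians of these 4 lists lay between -0.04 and 0.02.

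Mesenchymal and matrix genes gave single calls in either direction. Prrx1, a homeobox factor of limb and face mesenchyme that also acts in the laterality of the heart, was at 29.6, 30.1 and 30.5 CPM on the left and 41.0, 40.3 and 39.99 on the right, with the 3 libraries of each side within 1 CPM of each other, and fell by 0.43 log2 units (SE 0.07, adjusted p = 0.00286). It was the only one of 18 tested mesenchymal transcription factors that was called. Lumican (Lum), a small proteoglycan that binds collagen, was at 101, 89.9 and 82.4 CPM on the left and 77.5, 60.3 and 73.0 on the right and rose by 0.38 log2 units (SE 0.07, adjusted p = 0.00343), the single call among 24 matrix genes; its relative Dcn was at 0.22 (adjusted p = 0.0854). Podocan (Podn), of the same protein family but on no list, was at 15.8, 17.2 and 12.4 CPM on the left and 9.28, 9.52 and 7.37 on the right (0.79, SE 0.12, adjusted p = 0.000531). The collagen IX gene Col9a2 was higher on the left by 0.30 (adjusted p = 0.0261; 0.0598 without pair 1 and 0.147 without pair 2), and was the only call of 10 tested genes of cartilage and tendon, whose median was -0.06. The other 9 ran from -0.48 to 0.78, with Col9a1 at -0.06 and Col9a3 at -0.21. The highest was the cartilage proteoglycan gene Acan, under 2 CPM, which was higher on the left in 3 of 3 pairs and was not called (adjusted p = 0.685).

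Among guidance cues the semaphorin gene Sema3d was the single call of 20, at 127, 118 and 115 CPM on the left and 104, 91.7 and 99.5 on the right (0.28, SE 0.05, adjusted p = 0.00696). It was not called with all 12 libraries in 1 fit with pairs (adjusted p = 0.123) or with DESeq2 and pairs (adjusted p = 0.16). Of 9 tested chemokine and cytokine genes 3 were called. Cxcl13, a chemokine that attracts B cells, was at 13.6, 25.2 and 11.9 CPM on the left and 9.48, 13.1 and 7.08 on the right, with overlapping sides and a left value above the right one in each pair (0.76, SE 0.12, adjusted p = 0.00102). Gas6, a ligand of the TAM receptor kinases, rose by 0.32 (SE 0.06; adjusted p = 0.0632 without pair 1), and the B cell survival factor gene Tnfsf13b fell by 0.49 (SE 0.09), from 32.8, 31.4 and 29.9 CPM on the right to 21.5, 21.0 and 24.6 on the left. Of 18 tested imprinted and IGF genes the single call was Asb4 (chromosome 6, 5383386 to 5433022, plus strand), an imprinted gene for a subunit of a ubiquitin ligase. It was at 101, 114 and 117 CPM on the left and 75.3, 84.5 and 88.5 on the right and rose by 0.42 log2 units (SE 0.05, adjusted p = 8.06e-05), and number 1 was the lowest library of each side. Its imprinted neighbour Peg10 was at -0.17 (adjusted p = 0.197), and Igf2 was at 0.25 (adjusted p = 0.094).

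Genes of nerve, muscle and lung surface had mostly negative values, with few calls. Of 10 tested genes of autonomic neurons 5 were lower in 3 of 3 pairs and the median was -0.52, and 1 was called: Stmn2, a neuronal regulator of microtubules, at 12.01, 6.34 and 8.49 CPM on the left and 14.3, 14.4 and 13.5 on the right (-0.66, SE 0.14, adjusted p = 0.0264). Without pair 2, whose left library was the lowest, its adjusted p was 0.256. The autonomic transcription factor Phox2a (-0.81, adjusted p = 0.316) was not called, and the summed level of the list overlapped between the sides, from 40.8 to 71.7 CPM on the left and 70.7 to 71.9 on the right. All 9 tested smooth muscle and pericyte genes had negative values with a median of -0.18, and none was called. All 7 tested genes of the cardiac list were negative, with a median of -0.20. They included Tbx5 (-0.11), given above as a transcription factor of lung mesenchyme. The 1 call was Actc1, an actin of heart and early smooth muscle. It was at 47.1, 48.0 and 61.2 CPM on the left and 56.7, 61.5 and 72.2 on the right with overlapping sides (-0.29, SE 0.06, adjusted p = 0.0252, and 0.0833 without pair 1 and 0.121 without pair 2). Lrrn4, a gene of mesothelium, was the single call of 9 mesothelial genes, at 48.8, 49.2 and 35.2 CPM on the left and 56.9, 57.6 and 49.5 on the right (-0.31, SE 0.07, adjusted p = 0.0378; 0.313 without pair 3). The summed level of mesothelial genes was 922 to 1006 CPM on the left and 1020 to 1051 on the right. Podxl was the largest part of that sum, at 445, 386 and 424 CPM on the left and 460, 471 and 474 on the right. Of the 9 tested mesothelial genes 6 had negative and 3 positive values.

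Those defining markers of heart, liver and skeletal muscle that could be seen here were low. Only 3 of 6 chosen heart markers and 2 of 4 liver markers lay in the part of the genome analysed. For tracheal cartilage it was 3 of 4, and for stomach and oesophagus 1 of 3. The levels of the missing markers are not known here. The heart markers Myl2, Tnnt2 and Nppa summed to 3.12 to 5.51 CPM on the left and 5.32 to 9.09 on the right, the liver markers Alb and Afp to 5.69 to 8.99 and 5.84 to 8.33, and the skeletal muscle markers Myod1, Myog, Pax7 and Pax3 to 0.96 to 1.4 and 0.57 to 1.05. The markers of tracheal cartilage, Col9a1, Matn1 and Acan, summed to 16.6 to 22.1 CPM on the left and 17.1 to 20.2 on the right. None of these markers was at 0 in all 6 libraries. Nkx6-1, listed for stomach and oesophagus, was at 16.2, 23.8 and 10.6 CPM on the left and 20.6, 28.9 and 16.7 on the right (-0.40, SE 0.10, adjusted p = 0.0729). The summed heart markers, with overlap, and the summed mesothelial genes, without overlap, were lower on the left. The mesothelial sum was made up most of all by Podxl, so it need not stand for the other genes of that list. The part of these tissues in the differences of Actc1, Lrrn4 and the other genes lower on the left was not tested.

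**Figure D3:**
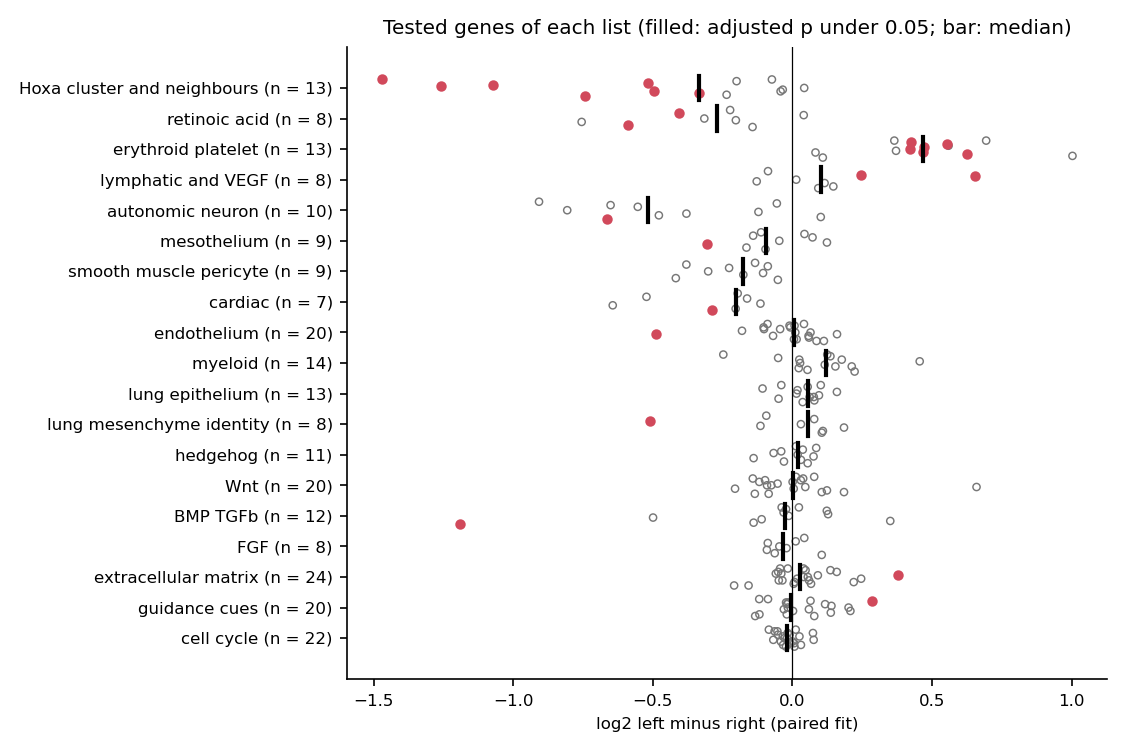
Log2 difference between left and right in the fit with pairs (horizontal axis) for the tested genes of 19 lists (rows; n is the number tested). Each circle is a gene, filled where its adjusted p was under 0.05, and black bars are medians. The Hoxa list lies mostly to the left and the erythroid and platelet list to the right of 0. The medians of the hedgehog, Wnt, FGF and cell cycle lists lie close to 0, with single Wnt genes up to 0.66.

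Other called differences included several genes at low levels. Gria2, a glutamate receptor subunit, was at 1.25, 1.04 and 0.933 CPM on the left and 3.06, 3.45 and 2.39 on the right (-1.46, SE 0.29, adjusted p = 0.0132; 0.121 without pair 2). Ntrk3, a neurotrophin receptor, fell by 0.94 (0.178 without pair 2), Thsd7b by 0.92 (0.095 and 0.0512 without pair 1 and 2), the laminin chain gene Lamc3 by 0.74 (0.178 without pair 2) and Olfml2a by 0.73 (0.081 and 0.093 without pair 1 and 2), where each bracket gives the adjusted p that ended the call. Higher on the left were the coactivator gene Cited4 (0.86) and the sodium channel gene Scn7a, at 42.8, 28.9 and 28.4 CPM on the left and 26.4, 22.9 and 19.5 on the right (0.53, SE 0.09, adjusted p = 0.00163). Cited4 was not called without pair 2 or 3 (adjusted p = 0.14 and 0.0795). Adarb1, an enzyme that edits adenosine in RNA, was at 133, 104 and 135 CPM on the left and 97.3, 83.8 and 92.0 on the right (0.44, SE 0.06, adjusted p = 8.06e-05). Gm10705, an unnamed gene model, was at 41.4, 46.5 and 49.1 CPM on the left and 20.1, 17.9 and 9.95 on the right (1.52, SE 0.14, adjusted p = 6.89e-07) and was called without pairs as well (adjusted p = 0.0244). Dcx, a microtubule protein of young neurons and chosen after its values were seen, was at 106, 96.6 and 97.3 CPM on the left and 128, 135 and 108 on the right, without overlap, and fell by 0.30 (adjusted p = 0.143 without pair 2).

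Some genes were called with overlapping sides, and these were chosen after their values were seen. Rgs4, a regulator of G protein signalling, was at 4.52, 4.35 and 26.9 CPM on the left and 10.4, 7.56 and 36.1 on the right, so number 3 was several-fold above the others on each side while the left value was lower in each pair (-0.66, SE 0.13, adjusted p = 0.0129; 0.0507 without pair 1). Clca3a1 was at 30.4, 36.8 and 24.4 CPM on the left and 42.5, 50.1 and 36.0 on the right, with overlapping sides and the left lower in each pair (-0.49, SE 0.07, adjusted p = 0.0005). Plac8 showed the same form, at 10.7, 8.23 and 6.35 CPM on the left and 15.7, 12.8 and 10.6 on the right (-0.63, SE 0.12, adjusted p = 0.0103).

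No gene was called in the lists of lung epithelium (13 tested, median 0.05), cell cycle (22, -0.02), primary cilium and CPLANE complex (18, -0.01), glycolysis and hypoxia (18, -0.08), immediate-early response (13, 0.06) and Schwann cells and neural crest (8, -0.17). The nearest of the epithelial genes were Bex1 (0.10) and the airway transcription factor Sox2 (-0.11), and the cell cycle genes Cdc20 and Pcna were at -0.08 and 0.07. Over all tested genes 0.742% were called.

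The same comparison was set beside left and right lungs of Intu-knockout embryos, which shares no library with it. Intu RNA was not absent there, at 27.4, 27.2 and 26.2 CPM on the left and 28.2, 28.9 and 31.4 on the right. In wild type it was at 28.2 to 34.0 CPM. Knockout Xist was at 117, 915 and 497 CPM on the left and 107, 985 and 387 on the right, below every wild-type library. Knockout CPM were scaled among the knockout libraries alone. The part of these levels in the comparison was not tested. With pairs, 35 of 9182 genes were called there (0.381%), 21 higher on the left and 14 lower, and without pairs none was (233 genes had an unadjusted p under 0.05). The count rested on pair 2, without which 1 gene was called. Of the 68 wild-type calls 67 were tested in the knockout and 60 of those had the same sign (89.6%), against 58.3% of all 8973 genes tested in both. In the same direction 14 were called in both genotypes, 20.6% of the wild-type calls and 40% of the knockout ones, among them Scn7a, Asb4, Hbb-bs and Lum higher on the left, and Hoxa6, Hoxa7, Skap2, Npnt, Lrat, Rgs4, Tnfsf13b and Dcx lower.

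D030025E07Rik had 1, 0 and 0 raw counts in the left knockout libraries and 37, 7 and 26 in the right ones, and was too low to be tested there. Hoxa6 was at -0.74 (SE 0.11) beside -1.26, Hoxa7 at -0.80 (SE 0.17) beside -1.47 and Skap2 at -0.28 (SE 0.06) beside -0.49. Each of these 3 was nearer to 0 in the knockout, but the interaction of side and genotype did not pass for any of them (adjusted p = 0.956 for Hoxa6 and 0.998 for the other 2).

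A difference between genotypes in the left-right difference was called for 2 of 9519 genes with pairs (0.021%) and for none without (124 at an unadjusted p under 0.05, and none with limma-voom). Adarb1, higher on the left in wild type, was at 118, 197 and 156 CPM on the left and 124, 202 and 167 on the right in the knockout, where the sides were close in each pair (-0.07). The interaction was 0.51 (SE 0.08, adjusted p = 0.00409). Gm10705 was at 36.2, 12.7 and 45.6 CPM on the left and 38.1, 17.5 and 39.6 on the right in the knockout, a difference of -0.05 there, and the interaction was 1.57 (SE 0.20, adjusted p = 0.000448). Both were called by edgeR and the count was the same with limma-voom and pairs. Without wild-type pair 3 edgeR called 1 positive and 1 negative interaction, so Adarb1 and Gm10705 were not both called.

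**Figure D4:**
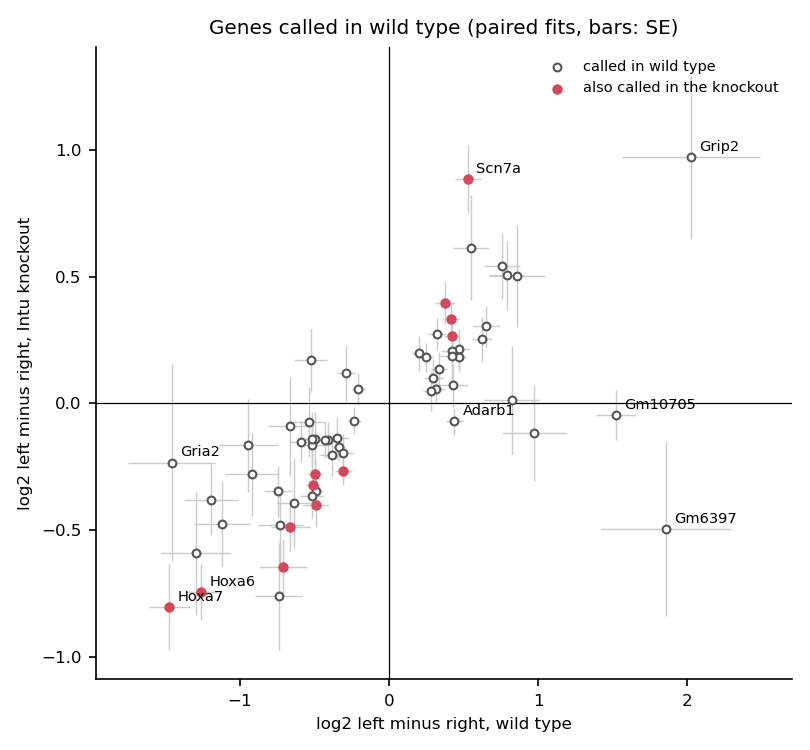
Log2 difference between left and right in Intu-knockout lungs (vertical axis) against that in wild-type lungs (horizontal axis), both from fits with pairs, for wild-type calls reported here and tested in both; bars are SE. Filled points are genes also called in the knockout, Hoxa6 and Hoxa7 are at the lower left, and Gm10705 and Adarb1 are near 0 in the knockout.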

How the data were processed

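RNA sequencing counts of 6 wild-type libraries were analysed, with the 6 Intu-knockout libraries beside them. Total RNA came from freshly dissected lungs (NucleoSpin kit) and BGI prepared the libraries, per the labels. The authors deposited whole-number read counts for each gene without normalisation, and FastQC, HISAT2, featureCounts and GRCm38 are named in the submitters' processing notes. No versions are given, nor whether strand was used. The table as used ends on chromosome 8 within 1 incomplete row, which was left out, and CPM is relative to the genes it holds; the rest of the genome was not analysed here. Symbols were matched by Ensembl ID for 30915 of 31078 genes (99.5%), and no symbol was guessed.

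Genes with low counts were removed with filterByExpr of edgeR (at least 10 counts, total of 15), and libraries were scaled with TMM factors of 0.994 to 1.01. Tests were edgeR 4.0.16 (glmQLFit and glmQLFTest, R 4.3.3) on the 6 libraries, without and with the replicate number as a block, with Benjamini-Hochberg adjustment over all tested genes. The fits had 4 and 2 residual degrees of freedom without and with pairs. The test adds degrees of freedom borrowed across genes, with medians of 6.22 and 19. With pairs the p-values thus rest more on a spread shared by all genes than on that of each gene. The procedure was also run on simulated counts that had pair effects and a set spread built in. That run therefore cannot show whether the pairing holds in these data. Every adjusted p in the text is from edgeR unless another tool is named. The interaction was fitted on all 12 libraries. Alternatives used DESeq2 1.42.0 and limma 3.58.1 (voom).

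The labels do not say what a shared number means. Deviations from the mean of a side correlated at 0.272 to 0.438 between libraries of one number, so the numbers were taken to pair the libraries. Between different numbers the correlations were -0.295 to -0.0433. Deviations from a mean cancel within a side, so these negative values follow in large part from the positive ones and are not separate evidence. Chi-square per degree of freedom between replicates was 4.74 to 9.24, so none was a duplicate of another.

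The members and gene lists were chosen with earlier results of these data known. Named are the tested genes of the Hoxa list, the calls without pairs, the 15 largest called differences in each direction at a mean of at least 1 CPM and with one sign in 3 pairs, up to 4 called members of each of 35 lists or the 2 with the smallest p, the interaction calls, and Nodal, Lefty1, Lefty2, Tbx5, Wnt2, Foxa2, Intu and Xist. Other list members named beside them, and calls said to be so, were chosen after their values were seen. Of 755 listed genes 450 were in the table and 390 were tested. Some genes that these rules name are not reported here. No set test was made.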

Additional observations from a re-analysis of the deposited data

Results flagged for a closer look

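The interaction of side and genotype passed edgeR's test with pairs for 2 genes, Gm10705 (1.57, adjusted p = 0.000448) and Adarb1 (0.51, adjusted p = 0.00409). Both were higher on the left in wild type and had knockout differences near 0 that were not called (-0.05 and -0.07). Without wild-type pair 3 they were not both called, since 1 of the 2 interactions called there was negative. Without pairs neither interaction passed (adjusted p = 1 for each).

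For 6 other named genes all 3 wild-type pairs went one way and all 3 knockout pairs the opposite way, and the interaction with pairs did not pass. The wild-type difference, the knockout difference and the interaction's adjusted p in edgeR were -0.52, 0.17 and 0.285 for Adam23, a membrane protein of neurons, and -0.40, 0.23 and 0.285 for the homeobox gene Nkx6-1. They were -0.38, 0.23 and 0.998 for Pdlim3, a muscle protein of the Z-disc, and -0.24, 0.11 and 0.998 for the slow skeletal troponin gene Tnnt1. For the glycolysis enzyme gene Pfkl they were -0.14, 0.07 and 0.998, and for Hoxa2 -0.035, 0.15 and 0.998. Only Adam23 was called in wild type, and none in the knockout. The Adam23 call was lost in edgeR without pair 1 (adjusted p = 0.0933) and without pair 2 (adjusted p = 0.107). With DESeq2 and pairs it was not called. The 6 were 5.41% of the 111 named genes tested in both genotypes, against 2.2% of all 8973 genes tested in both; many named genes had been chosen for a single direction in the wild-type pairs. A reversal between genotypes was not shown for any of them.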

How the results depend on the processing

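The count of wild-type calls depended on the pairing. The unpaired count of 8 became 68 with the replicate block, 1 with all 12 libraries in 1 fit, 63 with both, 22 with DESeq2, 40 with no filter on low counts and 4 at a mean of at least 5 CPM. Leaving out single libraries gave 0 to 10. The paired count of 68 became 8 with no replicate block, 22 with DESeq2 and the replicate block and 130 with no filter, and leaving out a pair gave 65 to 89. It was 67 and 71 with 2 other scalings and 62 with limma-voom. Of the 68 genes, 22 were called in every paired setting in which they were tested, among them D030025E07Rik, Hoxa5, Hoxa6, Hoxa7, Skap2, Npnt, Cav1, Cyp26b1, Hbb-y, Vegfd and Asb4. The Hoxa count of 7 became 3 with no replicate block. The knockout count of 35 became 0 with no replicate block and 1 to 39 when a pair was left out. The interaction count of 0 became 2 with the replicate block, 6 with no filter, 2 with limma-voom and the block, and 2 to 4 when a pair was left out. Like counts did not always mean the same genes: without wild-type pair 3, 1 of the 2 calls was negative. Among the named genes the differences that changed sign without a replicate were those of Gm6397 (-0.071 to 3.036 over the replicates left out), Hibadh (-0.14 to 0.10), Hoxd13 (-0.014 to 0.12), Intu (-0.088 to 0.025), Lefty1 (-0.14 to 0.071) and Xist (-0.26 to 0.013), and only Gm6397 of these had been called. Xist, not called with all pairs, was called by edgeR without pair 3 (-0.26, adjusted p = 0.0219). The causes were not tested. Depth limits the low genes: Nodal and Lefty2 had at most 4 counts in a library and could not be tested.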
